A study of Mus musculus with 6 samples.

Results

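The cytosolic ribosomal protein genes were examined in hepatocytes that received Sox4 from a viral vector. They were chosen by symbol, as every gene named Rpl, Rps or Rplp with a number and an optional a, x or l, with symbols of named pseudogenes left out. The count table held 82 such genes among 53599. By symbol alone, 48 were placed in the large (60S) subunit, 31 in the small (40S) subunit and 3 in the stalk of the large subunit. Of all 82 genes, 80 had a count in at least 1 library, and 77 were among the 12691 genes with enough counts for testing.

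Mice were injected with adeno-associated virus of serotype AAV8 and hepatocytes were collected 4 days later. The Sox4 group received AAV8-TBG-HA-Sox4-P2A-Cre, which carries HA-tagged mouse Sox4 and Cre recombinase, and the empty vector (EV) group received AAV8-TBG-Cre, so both groups expressed Cre. TBG is a promoter active in hepatocytes. The study's methods describe such injections in mice with a Cre-dependent Cas9-EGFP allele at Rosa26, while the labels give the genotype as WT for EV and Sox4 for the Sox4 group. Each group had 3 libraries from liver cells that were released with liberase and enriched on Percoll, a density medium. The labels give no age, and the study's methods describe mice a few weeks old at injection. By the study's description the libraries of a group came from separate animals, which the labels do not state.

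Ribosomal proteins assemble with ribosomal RNA into the particle that translates mRNA, and a ribosome needs them in nearly equal numbers. Their mRNAs are short and abundant in every cell, and most begin with a run of pyrimidines called a 5′ terminal oligopyrimidine (TOP) motif. Through this motif, mTORC1 and the RNA-binding protein LARP1 control how much of each mRNA is translated. Hepatocytes, which export plasma proteins, depend on a large ribosome pool.

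Total counts were between 15090629 and 16249382 in EV and between 16679195 and 16964860 in Sox4. Sox4 itself had 2, 0 and 3 counts in EV and 21697, 15097 and 11816 in Sox4. Libraries were scaled in 2 ways because the answers differ here. Total-count scaling divides by all counts, and TMM (trimmed mean of M-values) finds a factor that centres most genes on no change. The ratio of the mean library size in Sox4 to that in EV was 1.07 by total counts and 1.48 after TMM. Moving from TMM to total counts therefore shifted the median log2 fold change of all genes tested from 0.04 to 0.51.

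The cell type of the samples was checked with markers. All 8 hepatocyte markers, among them albumin (Alb) with at least 1097697 counts per library, were tested, and 6 were lower in Sox4 with TMM. With total counts 3 of them were lower and 0 higher. As a share of all counts they overlapped between the groups, at 9.75% to 11.4% in EV and 9.50% to 10.8% in Sox4. Their summed level was between 113392 and 136202 CPM (counts scaled to a library of 1e06) with TMM in EV and between 80955 and 91933 in Sox4. Kupffer cell markers (9 of 10 tested, 4 higher) summed to 13.4 to 28.8 CPM in EV and 29.1 to 67.9 in Sox4. Stellate cell markers (3 of 8 tested, 2 higher) summed to 8.55 to 45.1 CPM in EV and 77.9 to 139 in Sox4. Endothelial markers (8 of 8 tested, 2 higher and 1 lower) summed to 20.3 to 37.3 CPM in EV and 18.8 to 45.6 in Sox4. Cholangiocyte markers (4 of 8 tested, 1 higher) summed to 63.7 to 80.7 CPM in EV and 75.3 to 95.0 in Sox4, with Krt19 and Krt7 at 0 in every EV library. Lymphoid and neutrophil markers stayed under 4.35 CPM in sum, with Ms4a1 at 0 throughout. Of the erythroid list, each globin gene had at most 22 counts, whereas Alas2 fell from 1633, 1398 and 1274 counts to 292, 215 and 81. With total counts, 8 Kupffer, 3 stellate, 2 endothelial and 3 cholangiocyte markers were higher and 0 lower. Among all genes tested, 29.0% were higher and 26.0% lower with TMM, and 51.0% and 12.8% with total counts. The part of these cell types in the ribosomal protein values was not tested. In bulk RNA, fewer cells of a type and less RNA per cell cannot be told apart.

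Ribosomal protein mRNAs held a similar part of the counts in every library but Sox4 1, where their part was highest. They held 1.05%, 1.03% and 0.967% of all counts in EV 1 to 3 and 1.23%, 1.04% and 0.993% in Sox4 1 to 3, where the number is the replicate. The groups overlapped, and their means were 1.01% ± 0.0435 (SD, n = 3) and 1.09% ± 0.128 (SD, n = 3). The difference of 0.0748 percentage points rested on Sox4 1, without which it was 0.00219. On the TMM scale the summed level was 12229, 12220 and 11409 CPM in EV and 10500, 8867 and 8453 CPM in Sox4. Here every Sox4 library lay below every EV library. In Sox4 1, mitochondrial mRNAs held 4.36% of counts, against 5.32% to 7.44% in the other libraries, and their part in its ribosomal protein share was not tested.

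With TMM, 37 of the 77 tested genes were lower in Sox4 and 1, Rpl13a, was higher (edgeR quasi-likelihood test, adjusted p under 0.05). Over all genes tested, 26.0% were lower and 29.0% higher. The median log2 fold change of the ribosomal protein genes was -0.34, against 0.04 for all genes tested, and 71 of 77 were below 0. For 42 of them all Sox4 libraries lay below all EV libraries, as for 29.9% of all genes, and for 0 they lay above, as for 33.1% of all genes. The count of lower genes depended on single libraries. It was 59 without Sox4 1, 23 without EV 2 or without Sox4 2, and 24 without Sox4 3. The lower call of 20 genes held whichever library was left out.

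With total-count scaling the direction turned. Now 11 of the 77 genes were higher and 0 lower by the same edgeR test, 13 having an unadjusted p under 0.05, while 51.0% of all genes tested were higher and 12.8% lower. The higher genes were Rpl3, Rpl5, Rpl13a, Rpl15, Rpl27, Rps3, Rps4x, Rps9, Rps14, Rps15a and Rps19. The median log2 fold change was 0.13, against 0.51 for all genes. All Sox4 libraries lay above all EV libraries for 20 genes, against 54.7% of all genes, and below them for 0, against 14.8%. Without EV 2 the higher count was 4 and without EV 3 it was 7, whereas without Sox4 1 there were 8 higher and 10 lower genes and the median was -0.015. Rpl13a was called higher with both scalings.

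**Figure D1:**
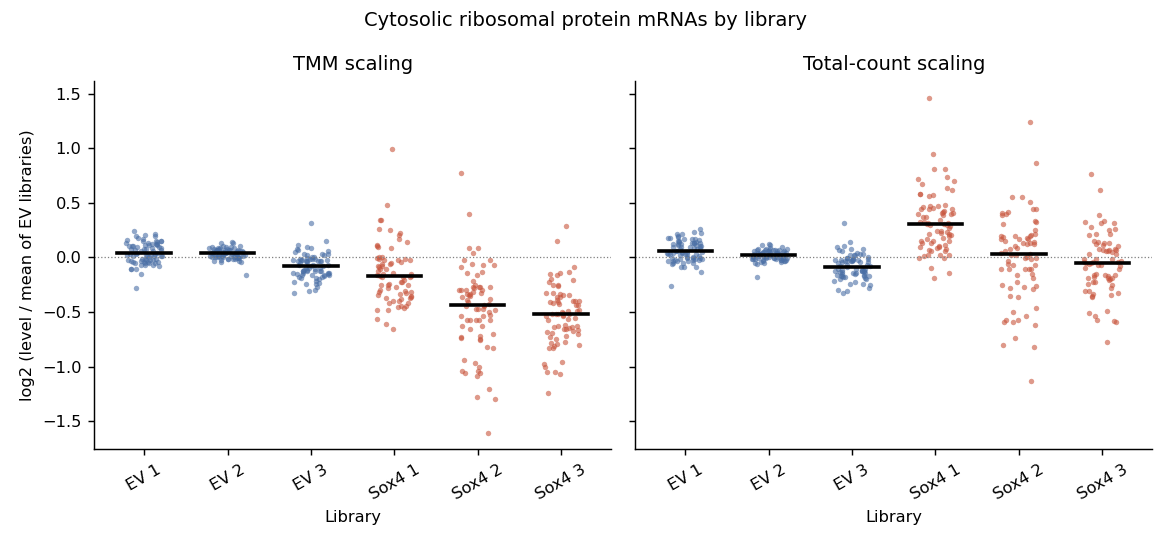
Level of each tested ribosomal protein gene in each library, as the log2 ratio to the mean of the EV libraries, with TMM (left) and total-count scaling (right); points are genes, black bars are medians over all 77, and Rps10 and Rpl6l, with mean counts under 20, are not drawn. With TMM the Sox4 medians are -0.17, -0.44 and -0.52, and with total counts they are 0.31, 0.03 and -0.05.

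The libraries of the Sox4 group differed more among themselves than those of EV. With TMM the median log2 ratio to EV was -0.17 in Sox4 1, -0.44 in Sox4 2 and -0.52 in Sox4 3. Sox4 1 thus lay nearest to EV, and with total counts it was the library with the highest level for 54 of the 77 genes. Within the set, the counts of replicate pairs differed by a chi-square per degree of freedom of 4.58 to 16.4 in EV and of 16.2 to 57.7 in Sox4, so that no pair could be taken for the same library.

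A change of scaling moves all genes by nearly the same amount, so the distance between these genes and the others is the same in both by construction. Their median lay 0.38 below that of all genes tested on the log2 scale with TMM and also with total counts, and 71 of 77 lay below the all-gene median in both cases. They were also close together, with an interquartile range of 0.29 in log2 fold change against 1.20 for all genes tested. From the 10th to the 90th percentile they ran from -0.67 to -0.08 with TMM and from -0.20 to 0.39 with total counts. Such closeness was not theirs alone. With TMM the quartiles were -0.54 and -0.25 for these genes and -0.32 and 0.02 for 30 translation initiation factors. For the mitochondrial ribosomal proteins they were wider apart, at -0.71 and -0.17.

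**Figure D2:**
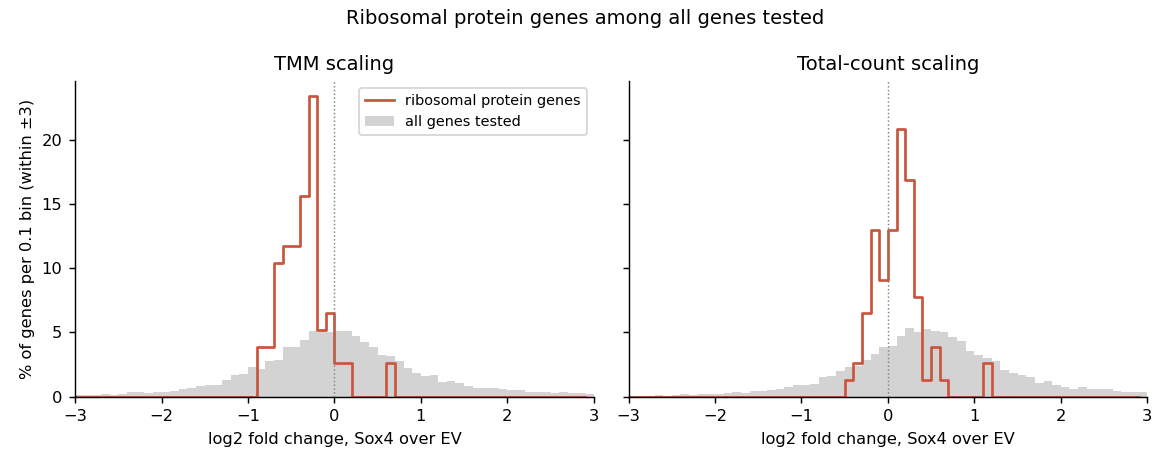
Distribution of log2 fold changes, Sox4 over EV, of all genes tested (grey bars) and of the 77 ribosomal protein genes (red line), as percent of genes within ±3 per bin of 0.1, with TMM (left) and total counts (right). The ribosomal protein genes form a narrow peak to the left of the middle of all genes in both panels, 0.38 below it by their medians.

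Transcript length went with the fold change over all genes. The ribosomal protein transcripts had a median length of 878 bases, against 3011 bases for all genes tested (75 of 77 and 11387 of 12691 had a length). Each length is that of the longest principal annotated transcript, which need not be the main mRNA in these cells. Rps15a, for example, was given 5179 bases, Rps20 3706 and Rpl18 2989, so the bins of longer transcripts are uncertain. Other genes under 700 bases had a median log2 fold change of -0.41 with TMM (n = 174), and 42.0% of them were lower. Ribosomal protein genes of that length had a median of -0.43 (n = 23), and 60.9% of them were lower. Under 700 bases the medians thus lay close together, while a larger share of the ribosomal protein genes was called lower. Between 700 and 1000 bases a smaller share of them was called lower, 8 of 25 against 155 of 406 other genes. The medians in that bin were -0.33 for other genes (n = 406) and -0.27 for ribosomal protein genes (n = 25). Between 1000 and 2000 bases they were -0.15 (n = 2361) and -0.39 (n = 22), and here the ribosomal protein genes lay lower. Among other genes of 4000 bases or more the median was 0.24. Within the 74 ribosomal protein genes with a length and a mean count of at least 100, the Spearman correlation of length and log2 fold change was 0.21, as it was across all genes tested. These correlations are across genes of the same 6 libraries and describe them only. The part of length in the fold changes was not tested.

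**Figure D3:**
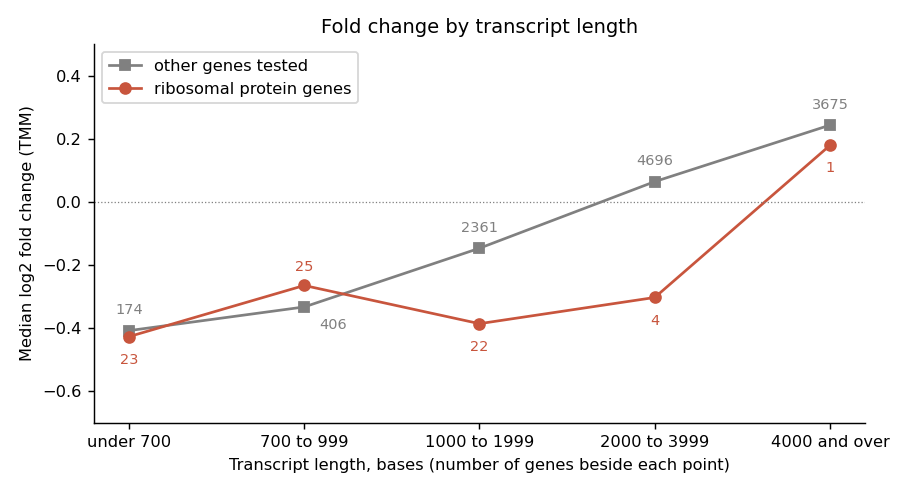
Median log2 fold change with TMM by annotated transcript length, for the ribosomal protein genes (red) and for the other genes tested (grey), with the number of genes beside each point. Lengths are of the longest principal transcript, which need not be the main mRNA. Other genes rise from -0.41 under 700 bases to 0.24 at 4000 bases or more; the ribosomal protein genes lie near them under 1000 bases and below them from 1000 to 4000 bases, with 4 genes in the bin from 2000 bases and 1 gene above 4000 bases.

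Genes of both subunits were lower with TMM. Of 43 tested genes of the large subunit, 20 were lower and 1 higher with TMM, with a median of -0.33, and of 31 of the small subunit 15 were lower, with a median of -0.35. With total counts 5 and 6 genes were higher, with medians of 0.14 and 0.12. The shares of all genes tested, lower and higher, were 26.0% and 29.0% with TMM and 12.8% and 51.0% with total counts. As a share of all ribosomal protein counts, the large subunit genes held 55.8% ± 0.126 in EV and 55.6% ± 0.496 in Sox4 (SD, n = 3). The small subunit genes held 37.8%, 37.7% and 37.8% in EV and 38.3%, 39.3% and 39.2% in Sox4, so that every Sox4 library lay above every EV library, with means of 37.8% ± 0.0699 and 38.9% ± 0.572 (SD, n = 3).

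A list of 9 genes encodes proteins around the tunnel through which the new peptide leaves the large subunit. With TMM the mRNAs of 7 were lower, with a median of -0.50. Among all 77 tested ribosomal protein genes 48.1% were lower, with a median of -0.34, and among all genes tested 26.0%. With total counts 0 passed in either direction, also at an unadjusted p under 0.05, and the median was -0.03. Rpl4, whose protein reaches into the tunnel wall, had 515, 539 and 518 CPM in EV and 385, 363 and 360 CPM in Sox4 with TMM. The groups did not overlap, and the log2 fold change was -0.50 (SE 0.036, adjusted p = 0.00528). With total counts it was -0.03 (adjusted p = 0.814). In the small subunit, 7 of 14 genes of the head and 6 of 15 of the body were lower with TMM, with medians of -0.39 and -0.26. Rps2, near the mRNA entry site, had 569, 541 and 467 CPM in EV and 384, 323 and 302 CPM in Sox4, again without overlap. Its log2 fold change was -0.64 (SE 0.134, adjusted p = 0.00406) with TMM and -0.17 (adjusted p = 0.314) with total counts. Rps15, of the head, had 139, 136 and 109 CPM in EV and 107, 59.9 and 63.4 CPM in Sox4. Rpl28, of the large subunit, had 153, 159.6 and 125 CPM in EV and 129, 59.2 and 69.3 CPM in Sox4, where Sox4 1 lay inside the EV range, and its call (-0.76, SE 0.36, adjusted p = 0.0496) held, among the libraries left out in turn, only without Sox4 1. For Rps15 the highest Sox4 value lay just under the lowest EV value, and the call (-0.74, adjusted p = 0.0192) was lost without EV 1, Sox4 2 or Sox4 3.

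**Figure D4:**
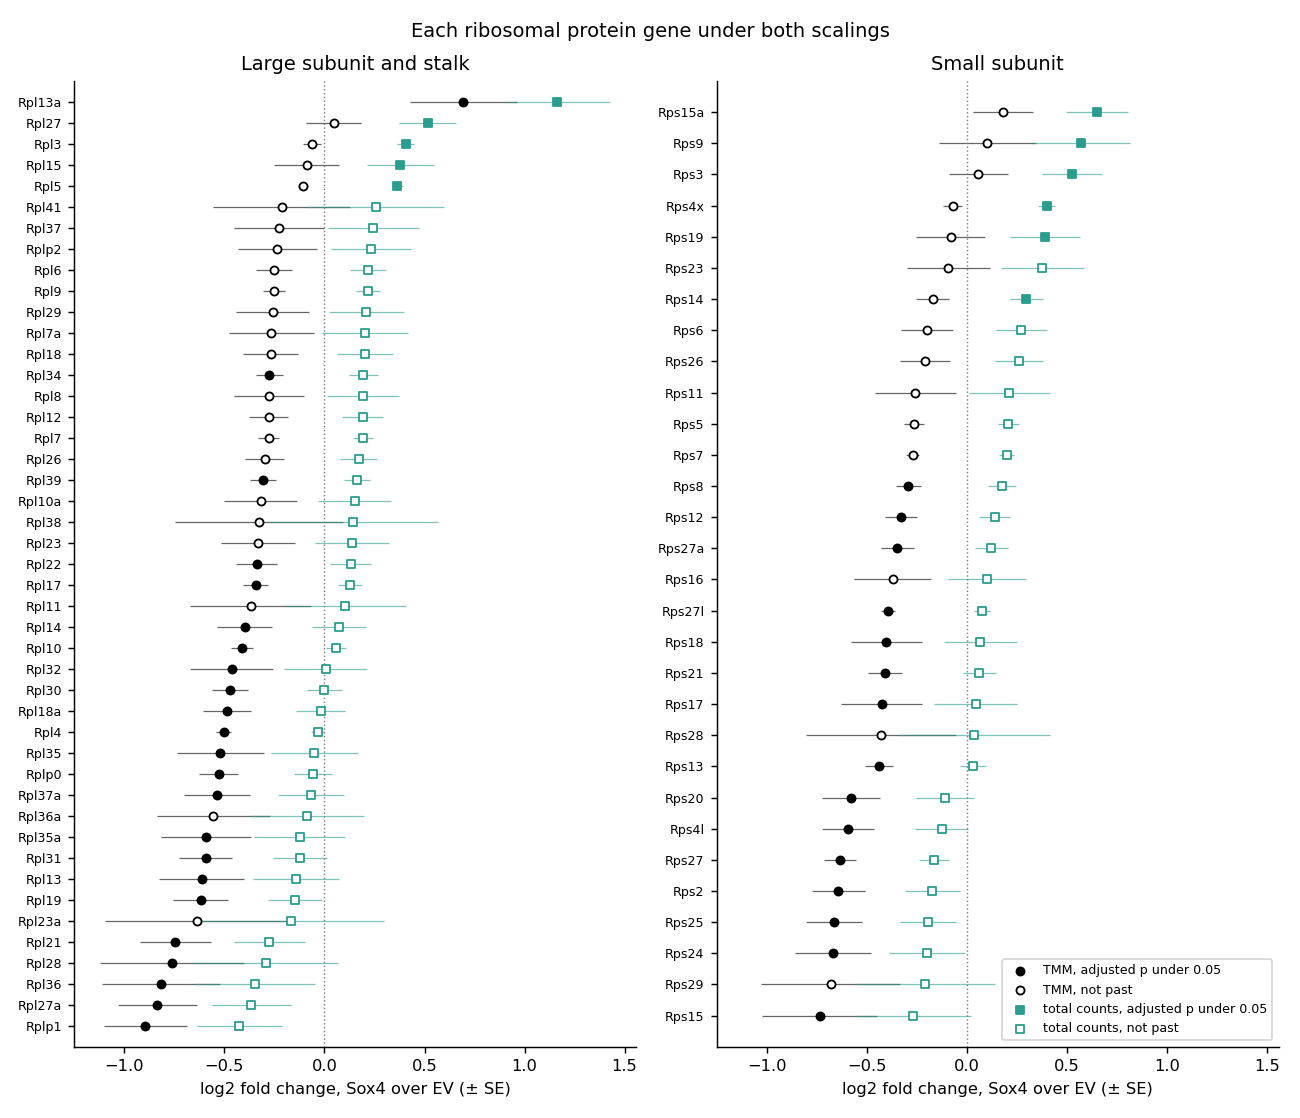
Log2 fold change, Sox4 over EV, of 75 of the 77 tested genes with TMM (black circles) and total counts (green squares), ordered by the TMM value; bars are the SE of the difference, filled symbols passed an adjusted p under 0.05, and Rps10 and Rpl6l are not drawn. Total counts move every gene to the right in nearly the same order, from Rplp1 at the bottom to Rpl13a at the top, so the filled symbols are mostly the lower genes with TMM and the upper genes with total counts.

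The stalk, which recruits the translation factors, held a smaller share of the ribosomal protein counts in Sox4, 5.47% ± 0.123 against 6.46% ± 0.0884 in EV (SD, n = 3). Rplp1, 1 of its acidic proteins, had 294, 261 and 236 CPM in EV and 178, 114 and 133 CPM in Sox4 with TMM. No libraries overlapped, and its log2 fold change of -0.90 (SE 0.208, adjusted p = 0.00175) was the lowest of the tested genes. Rplp0, the base of the stalk, had 418, 447 and 418 CPM in EV and 321, 309 and 261 CPM in Sox4, which gave a log2 value of -0.53 (SE 0.098, adjusted p = 0.00664). Rplp2, the other acidic protein, overlapped between the groups, with 88.7, 81.9 and 73.2 CPM in EV and 86.3, 64.2 and 56.6 CPM in Sox4. Its log2 fold change was -0.24 (SE 0.197, adjusted p = 0.237), and it passed the test only without Sox4 1 (-0.43, adjusted p = 0.012). With total counts the 3 stalk genes were at -0.43, -0.06 and 0.23 for Rplp1, Rplp0 and Rplp2, and 0 passed. With an unadjusted p under 0.05, 1 of them passed.

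A further scaling, to the summed counts of the ribosomal protein genes in each library, asked which of them departed from the rest whatever the library size. It called 5 genes higher and 4 lower in edgeR, against 43.5% and 14.3% of all genes tested. The lower genes were Rplp1, Rpl27a, Rpl36 and Rpl21, and the higher genes were Rpl13a, Rps15a, Rps9, Rps3 and Rpl27. These counts moved with single libraries, from 1 higher and 0 lower without Sox4 2 to 9 and 9 without Sox4 1. Without EV 1 they were 4 and 1, without EV 2 they were 1 and 1, and without EV 3 they were 2 and 3. Only Rpl13a was called whichever library was left out. With all libraries, 0 of the 9 genes around the peptide exit tunnel were called on this scale.

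Per 10000 ribosomal protein counts, Rplp1 had 241, 214 and 207 in EV and 169, 129 and 158 in Sox4. Rpl27a, of the large subunit, had 154, 159 and 151 in EV and 127, 100.1 and 106 in Sox4. Neither gene overlapped between groups, and their log2 fold changes on this scale were -0.54 (SE 0.136, adjusted p = 0.0113) and -0.48 (SE 0.103, adjusted p = 0.0122). Both calls held for 4 of the 6 libraries left out in turn. Rpl36 had 82.1, 76.1 and 63.7 in EV and 65.5, 50.8 and 43.9 in Sox4, so that Sox4 1 lay above EV 3. Rpl21 had 109, 119.6 and 117 in EV and 96.0, 75.4 and 93.2 in Sox4, without overlap. Rpl36 (-0.47, adjusted p = 0.04) and Rpl21 (-0.39, adjusted p = 0.0344) kept the call for 2 of 6 libraries left out.

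Among the genes that took a larger share, Rps3, which lies at the mRNA entry of the small subunit and has a DNA repair role, had 187, 175 and 169.8 in EV and 239, 254 and 219 in Sox4 per 10000. Rpl27 had 101, 98.5 and 88.5 in EV and 125, 137 and 121 in Sox4. Rps9 had 171, 154 and 135 in EV and 242, 202 and 187 in Sox4. In all 3 genes every Sox4 library lay above every EV library. Their log2 fold changes on this scale were 0.42 for Rps3 (SE 0.074, adjusted p = 0.019), 0.41 for Rpl27 (SE 0.078, adjusted p = 0.0179) and 0.46 for Rps9 (SE 0.147, adjusted p = 0.0268), and each call held for 3 of 6 libraries left out. With TMM the same genes were at 0.06, 0.05 and 0.10, and none of them passed. Rps15a had 68.6, 60.8 and 80.6 in EV and 77.6, 124 and 109 in Sox4, where Sox4 1 lay inside the EV range, and its call (0.56, SE 0.232, adjusted p = 0.0258) held for 2 of 6.

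Rpl13a, whose protein also belongs to an interferon-responsive complex that blocks translation of inflammatory mRNAs, had 81, 97 and 130 counts in EV and 301, 254 and 183 in Sox4. These are low for a ribosomal protein gene, at 7.34 CPM per kilobase of transcript in EV against 157 for the median gene of the set. With TMM it had 6.24, 7.37 and 9.44 CPM in EV and 15.1, 13.0 and 9.27 in Sox4, so that the lowest Sox4 library lay inside the EV range. Its log2 fold change was 0.69 (SE 0.267, adjusted p = 0.0253), and this call was lost without EV 1, EV 2, Sox4 1 or Sox4 2 (adjusted p from 0.0723 to 0.0901). Per 10000 ribosomal protein counts there was no overlap, with 5.10, 6.03 and 8.28 in EV and 14.4, 14.6 and 11.0 in Sox4. Of its transcript, 55.2% matches another annotated transcript over 100 bases, so its level is uncertain.

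**Figure D5:**
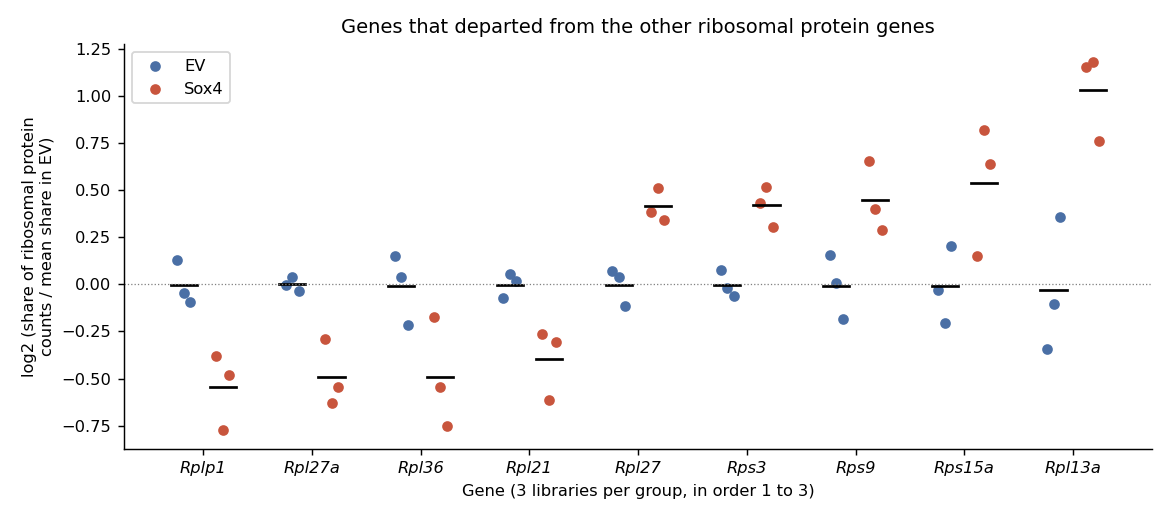
Share of the ribosomal protein counts held by the 9 genes called after scaling to the summed ribosomal protein counts, as the log2 ratio to the mean share in EV, with a point per library (EV blue, Sox4 red, in order of replicate) and a bar at the group mean. Rplp1, Rpl27a and Rpl21 lie below and Rpl27, Rps3, Rps9 and Rpl13a above the EV libraries without overlap, while Rpl36 and Rps15a overlap through Sox4 1.

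The start sequences of the 6 of these 9 genes that have an entry in the RefSeq promoter table (GRCm38.p6) are shown because the TOP motif lies there. Each runs from 20 bases before the annotated start to 20 bases from it onward. Capitals mark the longest run of at least 5 pyrimidines counted from a C within 10 bases of the start, whatever base precedes that C. Such a run need not reach the annotated start. The pair Rps27 and Rps27l follows for the comparison of paralogues.
Rpl27a: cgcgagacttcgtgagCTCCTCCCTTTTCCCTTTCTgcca
Rpl27: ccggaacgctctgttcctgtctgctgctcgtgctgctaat
Rps3: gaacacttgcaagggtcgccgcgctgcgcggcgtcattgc
Rps9: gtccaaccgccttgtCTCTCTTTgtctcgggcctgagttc
Rps15a: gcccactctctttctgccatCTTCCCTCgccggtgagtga
Rpl13a: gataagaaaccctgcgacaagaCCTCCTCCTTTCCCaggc
Rps27: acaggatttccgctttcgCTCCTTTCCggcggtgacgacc
Rps27l: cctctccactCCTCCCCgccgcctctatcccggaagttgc

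They lie at chr7:109519175-109519214 (plus strand) for Rpl27a, chr11:101442225-101442264 (plus) for Rpl27, chr7:99483690-99483729 (minus) for Rps3 and chr7:3704021-3704060 (plus) for Rps9. Those of Rps15a, Rpl13a, Rps27 and Rps27l lie at chr7:118116128-118116167 (minus), chr7:45128726-45128765 (minus), chr3:90213629-90213668 (minus) and chr9:66946066-66946105 (plus). Each window spans the annotated start and so holds upstream sequence and the first transcribed bases. The run of Rpl27a is 20 bases long, that of Rpl13a 14, that of Rps27 9 and those of Rps9 and Rps15a 8 each. That of Rps27l is 7 bases long, follows further pyrimidines and ends before the annotated start. Rpl27 and Rps3 had no such run in these letters, although annotated starts can lie some bases away from the true ones. A run was thus present in the 1 gene with an entry that took a smaller share and in 3 of the 5 that took a larger one.

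Over the 60 of 82 genes with an entry, counting the first entry of each, 60% had such a run against 30.8% of all 27025 promoters in the table. Among the 55 tested genes with an entry, 15 of 32 with a run and 10 of 23 without were lower with TMM, with medians of -0.31 and -0.37. Of the 300 bases from 250 before the start to 50 after, an ETS motif (CGGAAG, either strand) was found in 66.7% of the ribosomal protein promoters and in 17.2% of all. A YY1 motif (AAGATGG) was found in 13.3% against 6.48%, a MYC E-box (CACGTG) in 8.33% against 7.24% and a TATA box (TATAAA) in 10% against 14.2%. The E-box genes, named after the search, were Rpl13a, Rpl14, Rpl19, Rpl23 and Rpl34. The Sox-type motif AACAAAG was found in 1 promoter, that of Rpl22, or 1.67% against 5.79% of all, and AACAATG in 0 against 3.87%. All motifs were searched on both strands, none of them contains another, and a match is a description of letters only.

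Some ribosomal proteins have a second gene. Rps27l, a paralogue of Rps27 that is a p53 target, had more counts than Rps27 in every library, at 367 CPM per kilobase against 255 in EV and 279 against 164 in Sox4 with TMM. Of the Rps27 transcript, 98.4% matches other annotated transcripts over 100 bases and of Rps27l 0%, so the level of Rps27 is uncertain. Rps27 had 79.0, 90.9 and 93.7 CPM in EV and 55.5, 58.9 and 55.1 CPM in Sox4, or -0.64 in log2 fold change (SE 0.081, adjusted p = 0.00083). Rps27l had 183, 179 and 187 CPM in EV and 145, 134 and 138 CPM in Sox4, or -0.40 in log2 fold change (SE 0.036, adjusted p = 0.01). Neither overlapped between the groups with TMM, and both calls held whichever library was left out. With total counts they were at -0.17 and 0.07 and did not pass. The ratio of Rps27l to Rps27 counts, which no scaling touches, was 2.32, 1.97 and 2.00 in EV and 2.60, 2.28 and 2.51 in Sox4, so that Sox4 2 lay inside the EV range. The difference in log2 ratio was 0.24 (SE 0.094).

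Rps4l, a second Rps4 gene, had 276, 276 and 262 counts in EV and 266, 304 and 229 in Sox4, against 2748, 2895 and 3243 and 4209, 4185 and 4131 for Rps4x. The ratio was 0.10, 0.0953 and 0.0808 in EV and 0.0632, 0.0726 and 0.0554 in Sox4, lower in every Sox4 library, with a difference in log2 ratio of -0.54 (SE 0.147). With 3 libraries against 3 an exact permutation test cannot go below 0.1, and no test was made of these ratios. Rps4l was lower with TMM (-0.60, SE 0.13, adjusted p = 0.00699) and at -0.13 with total counts. No coding transcript of Rps4l was found in the annotation used for lengths, so its shared sequence was not assessed. Rps4x was at -0.07 with TMM (adjusted p = 0.602) and higher with total counts (0.40, adjusted p = 0.0108). Rpl22l1, a paralogue of Rpl22 outside the naming rule, overlapped between groups in its ratio to Rpl22, with 0.314, 0.286 and 0.255 in EV and 0.284, 0.165 and 0.309 in Sox4.

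The parents of the silent paralogues, and then Rpl22 and Rpl36a, had lower values with TMM than with total counts. Rpl3l, the striated muscle form of Rpl3, had at most 3 counts in any library, and Rpl10l and Rpl39l, known from testis, had 0 in every library. Rpl3 had 277, 284 and 283 CPM in EV and 277, 277 and 253 CPM in Sox4 with TMM, which overlapped (-0.06, SE 0.045, adjusted p = 0.657). With total counts Rpl3 was higher (0.41, adjusted p = 0.011). Rpl10, whose protein completes the large subunit late in its maturation, had the highest level per length of the set in EV, 554 CPM per kilobase with TMM, followed by Rplp1 (528) and Rps2 (480). It had 448, 478 and 496 CPM in EV and 344, 375 and 349 CPM in Sox4, without overlap, or -0.41 in log2 fold change (SE 0.057, adjusted p = 0.0161) with TMM and 0.06 (adjusted p = 0.686) with total counts. The TMM call was lost without EV 2 or EV 3. Of its transcript, 84.4% matches other annotated transcripts over 100 bases, as did over 50% of the transcript for 25 of the 79 genes with a value. Rpl39 (-0.31, adjusted p = 0.0304) and Rpl22 (-0.34, adjusted p = 0.0306) were lower with TMM and at 0.16 and 0.13 with total counts, and each TMM call was lost without 3 or more of the libraries in turn. Rpl36a was at -0.56 with TMM (adjusted p = 0.0573) and passed only without Sox4 1 (-0.89, adjusted p = 0.000111), among the libraries left out.

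Rpl5 and Rpl11 form a particle with 5S RNA that can bind MDM2, the inhibitor of p53. Rpl5 had 189, 189 and 194 CPM in EV and 177, 182 and 173 CPM in Sox4 with TMM. All Sox4 libraries lay just below EV, but the change of -0.11 (SE 0.026) did not pass (adjusted p = 0.425), and with total counts it was 0.36 (adjusted p = 0.0135). Rpl11 had 159, 141 and 124 CPM in EV and 155, 90.8 and 82.2 CPM in Sox4. The high value of Sox4 1 made the groups overlap, and the change of -0.37 (SE 0.303, adjusted p = 0.208) passed, among the libraries left out in turn, only without that one (-0.71, adjusted p = 0.00113). Of the 12 tested genes of the list of ribosomal protein chaperones and the p53 link, 6 were higher and 3 lower with TMM, and 9 higher and 1 lower with total counts. Of all genes tested, 29.0% were higher and 26.0% lower with TMM, and 51.0% and 12.8% with total counts. Trp53 itself had 292, 256 and 257 counts in EV and 1394, 1459 and 1005 in Sox4, which was 1.69 higher on the log2 scale with TMM (SE 0.188, adjusted p = 2.10e-05). The p53 targets Cdkn1a (1.51, SE 0.26, adjusted p = 0.000245) and Mdm2 (0.67, SE 0.183, adjusted p = 0.00491) and the related inhibitor Mdm4 (0.66, SE 0.127, adjusted p = 0.00157) were higher too. Rps27l, a p53 target outside this list, was lower with TMM (-0.40, adjusted p = 0.01) and at 0.07 with total counts. Bccip, Aamp and Heatr3, chaperones of ribosomal proteins, were the 3 lower genes of the list with TMM, at -0.85, -0.68 and -0.55. Of them Bccip was also lower with total counts. The 6 higher genes with TMM included others of the list outside the p53 link, which are not named here.

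Rps6, the small subunit protein phosphorylated downstream of mTORC1, had 187, 201 and 199 CPM in EV and 158, 201 and 152 CPM in Sox4 with TMM. The groups overlapped through Sox4 2, and neither the TMM value (-0.20, SE 0.13, adjusted p = 0.237) nor that with total counts (0.27, adjusted p = 0.103) passed. Of the 14 tested genes of mTORC1 and TOP control, 2 were higher and 7 lower with TMM, and 5 higher and 1 lower with total counts. The shares of all genes tested, higher and lower, were 29.0% and 26.0% with TMM and 51.0% and 12.8% with total counts. Eif4ebp1, which holds back cap-dependent translation, was lower with both scalings, with 423, 356 and 371 counts in EV and 333, 251 and 198 in Sox4 (-1.13, SE 0.229, adjusted p = 0.000742 with TMM). Larp1, the TOP mRNA-binding protein, was lower with TMM (-0.53, SE 0.13, adjusted p = 0.00781) and at -0.06 with total counts. Sesn2 and Mlst8 were higher with both scalings, at 0.82 and 0.82 with TMM.

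Other mRNAs with a TOP motif were also examined, and their difference from the ribosomal protein genes was not tested. Of a list of 8 such genes 1 was higher and 0 lower with TMM, with 2 at an unadjusted p under 0.05, and their median was 0.06. The higher gene, named after its value was seen, was Hnrnpa1 (1.81, adjusted p = 4.65e-06), while Rack1, a protein of the small subunit, was at -0.10 (adjusted p = 0.515). With total counts 6 of 8 were higher. Of 7 tested elongation factors 3 were lower, Eef1a1 (-0.44) and Eef2 (-0.52), whose mRNAs also have a TOP motif, and Eif5a (-0.52), and Eef1e1 was higher (0.57) with TMM, while with total counts 3 were higher and 0 lower. Of 30 initiation factors 4 were higher and 8 lower with TMM, with a median of -0.13, and 17 were higher and 1 lower with total counts. The mitochondrial ribosomal proteins, which build the separate ribosome of that organelle, had 1 higher and 44 lower of 77 tested with TMM, with a median of -0.42. With total counts 14 were higher and 6 lower, with a median of 0.05. Beside the counts of these lists, 29.0% of all genes tested were higher and 26.0% lower with TMM. With total counts these shares were 51.0% and 12.8%.

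A few cytosolic ribosomal protein genes have names outside the rule. Rpsa, the laminin receptor homologue of the small subunit, had 5939, 6085 and 5956 counts in EV and 6367, 6330 and 5687 in Sox4. It was lower with TMM (-0.54, SE 0.06, adjusted p = 0.00402), as was Fau, which encodes the last small subunit protein as a ubiquitin-like fusion (-0.75, SE 0.236, adjusted p = 0.00609). Rps3a1 (-0.25, adjusted p = 0.105) and Rpl22l1 (-0.52, adjusted p = 0.0787) did not pass. Rpl36al had between 3 and 25 counts and was not tested. With total counts 0 of the 5 tested passed in either direction, also at an unadjusted p under 0.05. Rps27a, which is made as a fusion with ubiquitin, is within the rule and was lower with TMM (-0.35, SE 0.082, adjusted p = 0.026), a call that was lost without EV 2, EV 3 or Sox4 3.

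Of the 82 genes, 5 were not tested. Beside Rpl3l, Rpl10l and Rpl39l these were Rpl32l, with 2 to 10 counts per library, and Rpl24, with 4, 2 and 1 counts in EV and 11, 6 and 5 in Sox4. Rps10 was also close to the limit, with 16, 4 and 15 counts in EV and 34, 24 and 24 in Sox4, and it did not pass (0.65 with TMM, SE 0.553, adjusted p = 0.283). Rpl24 and Rps10 encode core proteins of the ribosome, and of their transcripts 80.1% and 47.7% match other annotated transcripts over 100 bases, so the levels of both are uncertain. The named pseudogenes of the set, 309 in the table, had a count for 174 and together held 0.552% to 0.697% as many counts as the ribosomal protein genes. Of 30 tested, 1 was lower and 0 were higher with TMM, against 26.0% and 29.0% of all genes tested. An unadjusted p under 0.05 was reached by 2 of the 30. Adding pseudogene counts to those of the parent genes left the number of lower genes at 37.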

How the data were processed

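The deposited values were raw read counts per gene, which the authors made by aligning reads to GRCm39 with STAR and counting with featureCounts 2.0.1; the submitters' processing notes give STAR 2.7.10b. Strand setting, annotation release and the handling of reads with several matches are not given in the sources used here. A deposited normalized table was not used. The members and lists were chosen with earlier results of these data known.

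In R 4.3.3, genes were kept with filterByExpr (minimum count 10, minimum total 15), and the groups were compared with the quasi-likelihood test of edgeR 4.0.16 (robust, no covariate, all 6 libraries, two-sided), with TMM, total-count or summed-member sizes over the genes kept. P-values were adjusted by Benjamini-Hochberg over all 12691 genes, with a threshold of 0.05. DESeq2 1.42.0 was an alternative. SE is that of the difference of group means of log2 CPM (prior count 2). The fit was tested on simulated counts. Depth was 15090629 to 16964860 counts per library. Genes named were fixed groups (stalk, paralogues and parents, Rpl5, Rpl11, Rps6, Rps27a, Rpl13a, genes outside the rule, untested members) and the 5 highest and 5 lowest by fold, with TMM and relative to the summed members (mean count of at least 100), and the 5 highest in CPM. Genes of other lists were named after their values were seen. Some genes of the lists are counted in totals but are not reported here. Lengths (longest principal coding transcript) and sequence shared over 100 bases came from GENCODE M21 on GRCm38, another build than that of the counts.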

Additional observations from a re-analysis of the deposited data

How the results depend on the processing

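The scaling decided the direction. With total counts in place of TMM the count of lower genes went from 37 to 0, that of higher genes from 1 to 11, and the median from -0.34 to 0.13. Single genes that changed sign were Rps27l (0.074), Rpl3 (0.41), Rpl10 (0.058), Rpl39 (0.16), Rps4x (0.40), Rpl22 (0.13), Rplp2 (0.23), Rpl5 (0.36), Rpl11 (0.10), Rps6 (0.27), Rps27a (0.12) and Rps3a1 (0.23). DESeq2 size factors, upper-quartile factors, TMM without the ribosomal protein genes, the DESeq2 Wald test, other filters and added pseudogene counts gave 27 to 38 lower genes and 1 higher.

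Leaving out 1 library at a time gave 23 to 59 lower and 0 to 1 higher genes with TMM, with a median of -0.49 to -0.28. Relative to the summed ribosomal protein counts it gave 1 to 9 higher and 0 to 9 lower genes. With total counts, in fits added after seeing the data, it gave 4 to 13 higher and 0 to 10 lower genes and a median of -0.015 to 0.18, the lowest without Sox4 1. With TMM, Rps9 (-0.126 to 0.241), Rps3 (-0.052 to 0.17) and Rpl27 (-0.057 to 0.143) changed sign without EV 3 and without Sox4 1. The cause was not tested.

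Replicate numbers are shared between the groups, but the labels do not say that they pair samples, and the deviations of same-numbered libraries correlated at 0.27, -0.09 and 0.13 over all genes. With the replicate number as a block, 46 genes were lower and 1 higher with TMM, 5 higher and 6 lower relative to the summed counts, and 11 higher and 3 lower with total counts (added after seeing the data). Of 480 values of single genes under the alternatives, 402 kept direction and call, which includes genes called in neither fit. Another 46 kept the direction but lost the call, 14 kept the direction and gained a call, and 18 changed sign, with or without a change of call. The pool is uneven. DESeq2 size factors, TMM without the ribosomal protein genes and added pseudogene counts each kept 32 of 32 values, whereas total counts kept 3 of 32. With total counts 13 lost the call, 4 gained one and 12 changed sign. Intervals from 3 libraries a group are wide, and genes that share sequence with copies are uncertain.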
